A study of Mus musculus with 20 samples.

Results

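Retinoic acid is the hormone-like product of vitamin A. The genes described here are the mouse genes for its synthesis (Aldh1a1, Aldh1a2, Aldh1a3), its breakdown (Cyp26a1, Cyp26b1), its nuclear receptors (Rara, Rarb, Rarg) and the uptake of its precursor retinol (Stra6). They are 9 of the 49315 gene identifiers counted, matched by symbol, and they were selected on the log2 fold change of Cyp26a1, whose rise between the groups compared here was among the largest in these data. By log2 fold change Cyp26a1 ranked 12 among 16500 genes tested. Its difference between the groups is therefore given as a description without a test, and 6 of the 9 genes had enough counts to be tested at all.

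The libraries are RNA sequencing libraries of eosinophils sorted by flow cytometry from mouse lung, each from the pooled lungs of 3 to 5 mice. The graft group (n = 5 pools) came from C57BL/6 mice 7 days after they received a Balb/c lung without costimulatory blockade, a treatment that withholds accessory signals from T cells. The sample titles give the lack of blockade, while the growth protocol shared by all samples mentions blockade alone. The labels give the eosinophils in these grafts as cells of the recipient. The resting group (n = 5 pools) came from lungs of untreated C57BL/6 mice. Grafts with blockade at day 7 and day 30 were not analysed here.

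Total counts were 15695074 to 26683784 per graft library and 6666577 to 12883144 per resting library. All 9 eosinophil markers were detected in both groups, with a summed level of 820 to 2951 CPM, counts scaled to a common library size, in the graft libraries and 1262 to 2586 CPM in the resting libraries (1 higher, 4 lower and 4 not passed). Markers of other cells were present as well and moved between the groups. Summed endothelial markers were 95.2 to 160 CPM in grafts and 2352 to 3278 CPM in resting lung (10 of 10 lower). Summed epithelial markers were 75.5 to 546 CPM in grafts and 3453 to 4966 CPM in resting lung (10 of 11 lower). Summed monocyte and interstitial macrophage markers were 4544 to 9151 CPM in grafts and 1851 to 2534 CPM in resting lung (10 of 12 higher). Summed T cell markers were 357 to 912 CPM in grafts and 85.1 to 125 CPM in resting lung (10 of 10 higher). Summed neutrophil markers were higher than the eosinophil sum in every library. They were 4802 to 9675 CPM in grafts and 8521 to 11566 CPM in resting lung (3 of 9 lower and 6 not passed). Summed red cell markers were 46.0 to 104 CPM in grafts and 1233 to 1864 CPM in resting lung (5 of 5 lower). Among all genes tested, 23.3% were higher in the grafts and 23.4% lower. None of these markers was at 0 across a group, and their part in the results below was not tested. The groups stood in separate deposited tables and differed in depth, so a batch and the group cannot be told apart. In such pooled libraries fewer cells of a type and less RNA per cell cannot be told apart either.

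As background, retinol circulates bound to RBP4 and can enter cells through the membrane receptor STRA6. Retinol dehydrogenases oxidise it to retinal, and the ALDH1A enzymes then oxidise retinal irreversibly to retinoic acid. Retinoic acid binds the receptors RARα, RARβ and RARγ, which sit on DNA as heterodimers with the RXR receptors. CYP26 enzymes, cytochromes P450, hydroxylate retinoic acid and so clear it from the cell. The gene of CYP26A1 is itself a well known target of the receptors, so its transcript is often used as a readout of retinoic acid signalling. In the lung the pathway is known for its part in alveolar development, and in immunity for its effect on T cell homing and on regulatory T cells.

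The receptors act through response elements, of which the classical form is DR5, a direct repeat of a hexamer such as AGTTCA or GGTTCA with a spacer of 5 bases. Promoter windows of 250 bases before and 50 after a transcript start (RefSeq, GRCm38.p6) were found for 8 of the 9 genes, 16 windows in all, and searched on both strands. DR5 was present in 2 of the 8, Cyp26a1 and Rarb, whose windows are shown because the genes share the element but not the size of their difference. Capitals mark the repeated hexamers.
Cyp26a1: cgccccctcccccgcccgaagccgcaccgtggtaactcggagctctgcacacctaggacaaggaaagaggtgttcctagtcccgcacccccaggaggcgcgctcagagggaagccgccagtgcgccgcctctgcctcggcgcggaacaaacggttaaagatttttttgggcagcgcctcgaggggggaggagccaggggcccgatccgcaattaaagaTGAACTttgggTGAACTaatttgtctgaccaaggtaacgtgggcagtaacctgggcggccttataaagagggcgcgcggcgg
Rarb: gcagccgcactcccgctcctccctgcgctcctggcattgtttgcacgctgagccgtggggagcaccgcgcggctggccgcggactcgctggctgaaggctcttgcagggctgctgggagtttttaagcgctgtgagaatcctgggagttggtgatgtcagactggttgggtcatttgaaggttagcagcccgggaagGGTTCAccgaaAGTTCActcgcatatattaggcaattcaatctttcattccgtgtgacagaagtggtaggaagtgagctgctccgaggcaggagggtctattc
The Cyp26a1 window lies at chr19:37697558-37697857 on the plus strand. Its element reads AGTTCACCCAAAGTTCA on the minus strand and spans the bases 32 to 16 before the start. The Rarb window lies at chr14:16575427-16575726 on the minus strand, at a transcript start inside the annotated gene. Its element reads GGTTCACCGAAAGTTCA on the strand of the gene and spans the bases 53 to 37 before the start. Among all promoter windows of this length, DR5 was present in those of 31 of 27025 genes (0.115%), and the exact form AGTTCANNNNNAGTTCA in those of 8. The related repeats with spacers of 1 and 2 bases, DR1 and DR2, were in none of the 16 windows of these genes and in the windows of 0.263% and 0.311% of all genes. A match describes the letters in the window and does not show that a receptor binds there.

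The question was what sets eosinophils of an unprotected allograft apart from those of undisturbed lung. The transcript of the retinoic acid-degrading enzyme Cyp26a1 was far more abundant in the graft libraries. The synthesis genes Aldh1a1 and Aldh1a2 and the receptor genes Rara and Rarg fell, while Rarb did not pass the test. Of the 5 genes tested beside Cyp26a1, 4 were lower and 0 higher by edgeR's quasi-likelihood test at an adjusted p below 0.05, against 23.4% of all 16500 genes lower and 23.3% higher. For Cyp26a1, Aldh1a1 and Rara no graft library lay within the resting range, nor the reverse, against 35.1% of all genes tested. Since the contrast also chose these genes, nothing is read from those counts. Scaled to library totals alone, 2495 genes were higher and 4883 lower (33.8% of called genes higher), against 3843 and 3859 (49.9%) with composition-corrected scaling, and the median of all genes shifted by -0.19 on the log2 scale. The direction and call of each of the 5 genes were the same under both scalings.

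**Figure D1:**
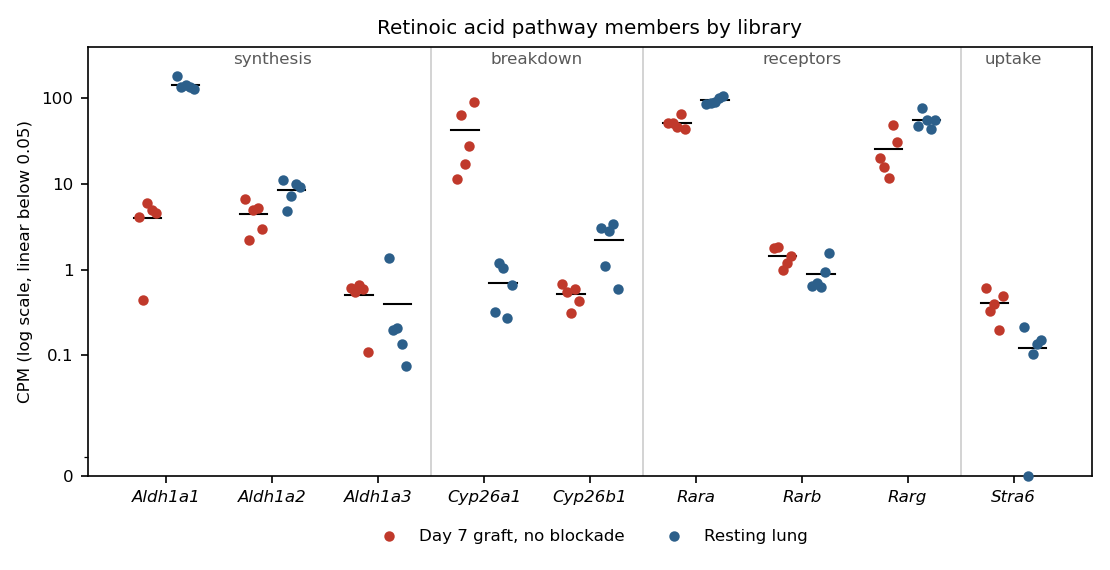
CPM of the 9 genes in each library (points, 5 pools per group) on a log axis that is linear below 0.05, with black bars for the group means. Cyp26a1 lies between 11.5 and 91.2 CPM in the grafts and at or below 1.19 CPM in resting lung, and Aldh1a1 at or below 5.96 CPM in the grafts and at or above 129 CPM in resting lung.

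Breakdown is described first. Cyp26a1 (ENSMUSG00000024987, chromosome 19, 37697798 to 37701536, plus strand, mm10) encodes the enzyme that hydroxylates all-trans retinoic acid. In graft pools 1 to 5 it had 189, 1175, 438, 423 and 1692 counts, or 11.5, 64.6, 17.2, 27.9 and 91.2 CPM. In resting pools 1 to 5 it had 3, 12, 10, 2 and 9 counts, or 0.318, 1.19, 1.03, 0.270 and 0.667 CPM. Every graft library stood above every resting library, and within the grafts pools 2 and 5 stood above the other 3. The means were 42.5 ± 34.2 CPM in grafts and 0.696 ± 0.414 CPM in resting lung (SD, n = 5 each). The fitted log2 fold change was 5.87 ± 0.68 (SE), a 58.7-fold higher level in the grafts. Without graft pool 5, the highest, the log2 fold change was 5.40. Summed dendritic cell markers had the order of Cyp26a1 over the grafts, at 241, 252, 245, 246 and 317 CPM in pools 1 to 5. This list was singled out from all the marker lists after the sums were seen. Its sums in graft pools 1 to 4 lay within 241 to 252 CPM, while Cyp26a1 ran from 11.5 to 64.6 CPM there. Dendritic cell markers summed to 165 to 233 CPM in resting lung (5 of 9 higher, 1 lower and 3 not passed), and their part was not tested. Summed eosinophil, T cell and both kinds of macrophage markers did not have the order of Cyp26a1. In pools 1 to 5 summed eosinophil markers were 820, 980, 1387, 2039 and 2951 CPM. Summed monocyte and interstitial macrophage markers were 5396, 9151, 6027, 4544 and 4764 CPM. Summed alveolar macrophage markers were 1158, 783, 938, 1201 and 495 CPM, and summed T cell markers 582, 357, 603, 514 and 912 CPM. Graft pool 5 was highest for eosinophil and T cell markers and low for both kinds of macrophage markers. Graft pool 2 was highest for monocyte and interstitial macrophage markers, lowest for T cell markers and low for eosinophil and alveolar macrophage markers.

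Cyp26b1 (ENSMUSG00000063415, chromosome 6, 84571414 to 84593908, minus strand), the close relative that clears retinoic acid in many non-hepatic tissues, was scarce in the grafts. It had 0.670, 0.549, 0.314, 0.593 and 0.431 CPM in graft pools 1 to 5, from 8 to 11 counts per library. In resting pools 1 to 5 it had 3.07, 1.09, 2.79, 3.38 and 0.593 CPM, from 8 to 29 counts. Resting pools 1, 3 and 4 were high and resting pool 5 lay within the graft range, so the groups overlapped. Cyp26b1 was below the filter on low counts. In the fit without that filter its log2 fold change was -1.95 ± 0.46, with an adjusted p of 0.000163. It passed the filter when any 1 graft pool was left out, with larger quasi-likelihood adjusted p of 0.00435 to 0.00883. Without resting pool 5 it also passed the filter (adjusted p = 0.000473). Across the breakdown pair, level per kilobase of annotated exon shifted to Cyp26a1. Cyp26a1 made up 97.9 to 99.8% of the summed Cyp26 level in the grafts and 17.8 to 75.2% in resting lung.

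Of the 3 synthesis genes, Aldh1a1 differed most. Aldh1a1 (ENSMUSG00000053279, chromosome 19, 20492715 to 20643465, plus strand) encodes a cytosolic retinal dehydrogenase. It had 4.08, 0.440, 5.96, 4.94 and 4.63 CPM in graft pools 1 to 5, and 182, 136, 143, 135 and 129 CPM in resting pools 1 to 5. All graft libraries lay far below all resting libraries, and graft pool 2, with 8 counts, lay below the other grafts. Aldh1a1 fell by 5.16 ± 0.42 on the log2 scale (SE, quasi-likelihood adjusted p = 5.71e-07), to 4.01 ± 2.11 CPM in grafts, against 145 ± 21.4 CPM in resting lung (SD). Endothelial (10 of 10), epithelial (10 of 11), stromal (6 of 11, with 2 higher) and mesothelial (3 of 4) markers were lower in the same libraries. Graft pool 2 had the lowest sum of each of these 4 lists, with 95.2 CPM endothelial, 75.5 CPM epithelial, 137 CPM stromal and 3.46 CPM mesothelial, and the part of these cells in the fall of Aldh1a1 was not tested. Aldh1a7, a near-identical paralog of Aldh1a1 on the same chromosome, also fell, by 3.61 ± 0.58 on the log2 scale (adjusted p = 0.000192), with a log2 fold change of -4.27 without graft pool 5. The sources used here do not say how reads matching both were counted, which leaves their split uncertain.

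Aldh1a2 (ENSMUSG00000013584, chromosome 9, 71215789 to 71296243, plus strand), the main retinal dehydrogenase of the early embryo, differed less. It had 6.64, 2.20, 5.02, 5.27 and 2.96 CPM in graft pools 1 to 5, and 11.2, 4.77, 7.23, 9.87 and 9.11 CPM in resting pools 1 to 5. Graft pools 2 and 5 were lowest, and resting pool 2 lay among the grafts. Aldh1a2 fell by 0.93 ± 0.31 on the log2 scale (adjusted p = 0.0236 by the quasi-likelihood test). That call ended without resting pool 1, 4 or 5 (adjusted p = 0.0724, 0.0600 and 0.0506). Aldh1a2 is also a gene of mesothelium, whose 4 markers summed to 26.6, 3.46, 22.3, 23.0 and 10.9 CPM in graft pools 1 to 5, lowest in the same pools 2 and 5, and to 33.2 to 69.3 CPM in resting lung. Graft pools 2 and 5 were also the lowest grafts for summed endothelial, epithelial, stromal and alveolar macrophage markers. Summed dendritic cell markers were instead highest in those pools, at 252 and 317 CPM. The part of any of these cells in the fall was not tested.

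Aldh1a3 (ENSMUSG00000015134, chromosome 7, 66390890 to 66427517, minus strand), the third retinal dehydrogenase, was near the limit of detection. It had 2 to 17 counts per graft library and 1 to 13 per resting library, with a median of 0.593 CPM in grafts and 0.199 CPM in resting lung. Resting pool 1 held 13 of the 19 resting counts. It was not tested, and without a filter its log2 fold change was 0.48 ± 0.65 (adjusted p = 0.589). By level per kilobase, Aldh1a2 made up 57.6 to 82.4% of the summed Aldh1a level in the grafts and 7.12 to 13.8% in resting lung, while Aldh1a1 made up 7.55 to 41.3% in the grafts and 86.1 to 92.7% in resting lung.

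**Figure D2:**
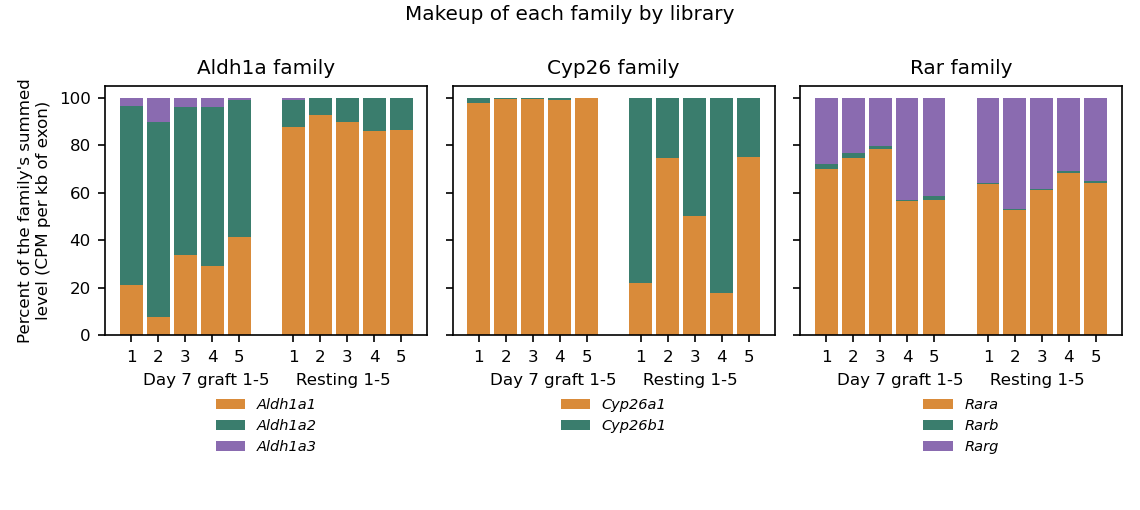
Percent of each family's summed level (CPM per kilobase of annotated exon) contributed by each gene, as stacked bars by library, graft pools left and resting pools right. Aldh1a2 leads the Aldh1a family in the grafts and Aldh1a1 in resting lung, Cyp26a1 makes up 97.9% or more of the Cyp26 level in every graft library, and Rara leads the receptors in all 10 libraries.

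Set against each other within a library, where scaling between libraries plays no part, breakdown and synthesis changed places. The summed level per kilobase of Cyp26a1 and Cyp26b1 was 1.52, 27.7, 2.44, 4.10 and 20.3 times that of the 3 Aldh1a genes in graft pools 1 to 5. In resting pools 1 to 5 the same ratio was 0.0174, 0.0272, 0.0323, 0.0243 and 0.0148. The median ratio was 4.10 in the grafts, and the inverse, Aldh1a over Cyp26, had a median of 41.2 in resting lung. The graft median was 12.2 without graft pool 1 or 3, 11.4 without graft pool 4 and 3.27 without graft pool 2 or 5, and 2.63 without correction for length. Graft pools 2 and 5 had the highest ratios, with both high Cyp26a1 and low Aldh1a2. The ratio is built from genes whose difference was already known and carries no test. It compares transcripts, and neither enzyme activity nor retinoic acid was measured in the files used here.

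**Figure D3:**
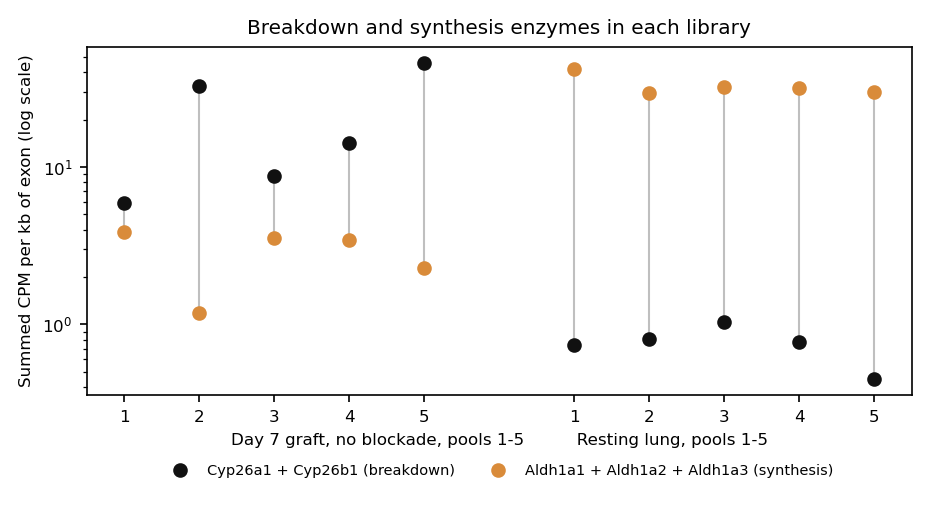
Summed CPM per kilobase of exon of the 2 Cyp26 genes (black) and the 3 Aldh1a genes (orange) in each library on a log axis, joined by a line, graft pools left and resting pools right. Black lies above orange in all 5 graft libraries, by 1.52 to 27.7 times, and below it in all 5 resting libraries.

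Among the receptors, Rara (ENSMUSG00000037992, chromosome 11, 98927818 to 98974942, plus strand), which encodes the widely expressed RARα, had the tightest values. It had 51.4, 52.1, 46.7, 66.1 and 43.8 CPM in graft pools 1 to 5, and 86.5, 89.4, 92.2, 100.3 and 105.7 CPM in resting pools 1 to 5. Every graft library was below every resting library. Rara fell by 0.87 ± 0.12 on the log2 scale (quasi-likelihood adjusted p = 5.42e-05), to 52.0 ± 8.58 CPM in grafts, against 94.8 ± 7.99 CPM in resting lung (SD, n = 5 each).

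Rarg (ENSMUSG00000001288, chromosome 15, 102234938 to 102257517, minus strand), which encodes RARγ, varied more. It had 20.05, 15.9, 11.8, 49.2 and 30.9 CPM in graft pools 1 to 5, and 48.0, 78.2, 56.4, 44.4 and 56.5 CPM in resting pools 1 to 5. Graft pool 4 lay within the resting range and the other 4 grafts below it. Rarg fell by 1.15 ± 0.33 on the log2 scale (quasi-likelihood adjusted p = 0.0112), and without a filter on low counts the call ended (adjusted p = 0.0706). Graft pools 4 and 5, highest for Rarg, also had the highest summed eosinophil markers among the grafts (2039 and 2951 CPM). Over graft pools 1 to 3 that sum ran up (820, 980 and 1387 CPM) while Rarg ran down, and a link was not tested.

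Rarb (ENSMUSG00000017491, chromosome 14, 16430839 to 16819156, minus strand), which encodes RARβ and is a classical retinoic acid-induced gene, was scarce. It had 1.77, 1.81, 0.980, 1.19 and 1.45 CPM in graft pools 1 to 5, from 18 to 33 counts. In resting pools 1 to 5 it had 0.636, 0.696, 0.620, 0.947 and 1.56 CPM, from 6 to 21 counts. Resting pool 5 lay among the grafts and the other 4 resting pools below all of them. The log2 fold change was 0.65 ± 0.35 and did not pass (quasi-likelihood adjusted p = 0.140), and without resting pool 5 it was 1.00 with an adjusted p of 0.0360. Of its 5265 exonic bases, 1793 overlap exons of Top2b on the opposite strand. Top2b, a DNA topoisomerase gene, had 101 ± 15.4 CPM in grafts and 91.6 ± 15.8 CPM in resting lung (adjusted p = 0.442). The sources used here name no strand setting for the counting, and the Rarb counts are therefore uncertain.

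By level per kilobase Rara made up 56.3 to 78.4% of the summed receptor level in the grafts and 52.6 to 68.5% in resting lung. Rarg made up 20.2 to 42.9% in the grafts and 31.0 to 47.1% in resting lung. Rarb stayed at or below 2.15% in every graft library and at or below 0.782% in every resting library. Receptor makeup thus overlapped between the groups for Rara and Rarg and did not for Rarb.

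Stra6 (ENSMUSG00000032327, chromosome 9, 58063788 to 58153996, plus strand), the cell surface receptor for retinol-bound RBP4, was the least abundant per kilobase in both groups. It had 10, 6, 10, 3 and 9 counts in graft pools 1 to 5, and 2, 0, 1, 1 and 2 counts in resting pools 1 to 5. The graft libraries are deeper, and in CPM the range was 0.198 to 0.609 in grafts and 0 to 0.212 in resting lung. Stra6 was not tested, and without a filter its log2 fold change was 1.79 ± 0.85 (adjusted p = 0.0991).

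Ordered by mean CPM per kilobase of exon, the grafts ran from Cyp26a1 (21.4 ± 17.2) and Rara (11.9 ± 1.97) through Rarg (6.00 ± 3.52), Aldh1a2 (1.95 ± 0.799), Aldh1a1 (0.813 ± 0.427) and Rarb (0.274 ± 0.0686) to Aldh1a3, Cyp26b1 and Stra6, all at or below 0.144 in every library. Of the 8 neighbouring pairs in this order, the libraries of Rarb and Aldh1a3 did not overlap and those of the other 7 did. In resting lung the order was Aldh1a1 (29.4 ± 4.33), Rara (21.7 ± 1.83), Rarg (13.3 ± 3.08) and Aldh1a2 (3.73 ± 1.11), each above the next in every library. Below them, Cyp26b1 (0.408 ± 0.235), Cyp26a1 (0.351 ± 0.209), Rarb (0.169 ± 0.0749), Aldh1a3 and Stra6 overlapped with their neighbours. By mean, Cyp26a1 thus stood first of 9 in the grafts and at place 6 in resting lung. Its first place rests on graft pools 2 and 5, since Rara was above it in pools 1, 3 and 4. Aldh1a1 stood at place 5 in the grafts and first in resting lung.

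The rest of the pathway was described with 54 further genes in 6 lists, of which 37 were tested. In the grafts 10 rose, 11 fell and 16 did not pass, with a median log2 fold change of 0.07 against 0.05 for all genes tested and 46.7% of all genes called in either direction. By direction, 23.3% of all genes tested were higher and 23.4% lower, the shares to set beside the counts of each list. In uptake and binding, 2 of 3 tested genes rose. Fabp5, a fatty acid-binding protein that can also carry retinoic acid to the nucleus, rose to 289 ± 164 CPM in grafts, against 24.3 ± 4.27 CPM in resting lung (log2 fold change 3.57 ± 0.34, adjusted p = 2.30e-06). Stra6l, a relative of Stra6 that binds RBP4, rose to 9.71 ± 5.40 CPM, against 2.37 ± 1.20 CPM in resting lung. The 6 that were not tested, among them Rbp4 and the retinoic acid carriers Crabp1 and Crabp2, were below the filter.

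Of 12 tested enzymes that interconvert retinol and retinal, 1 rose, 3 fell and 8 did not pass, among them Rdh10, the main retinol dehydrogenase of the embryo, with 7.10 CPM in grafts and 7.17 CPM in resting lung. Adh1, an alcohol dehydrogenase that also oxidises retinol, fell by 6.25 ± 0.37 on the log2 scale (adjusted p = 2.96e-08), to 0.481 ± 0.402 CPM in grafts, against 37.8 ± 4.35 CPM in resting lung. Adh7, which has the same activity, fell by 4.87 ± 0.71, with a log2 fold change of -5.98 without graft pool 4. The retinal reductase gene Rdh12 fell by 0.83 ± 0.20 and Adh5, the formaldehyde-clearing alcohol dehydrogenase, rose by 0.49 ± 0.12 on the log2 scale. Of the other oxidising enzymes, both tested genes fell. Aldh1a7 is described above, and the cytochrome P450 gene Cyp2s1 fell by 2.67 ± 0.37. Of 4 tested genes of storage and carotenoid cleavage, 2 rose, 1 fell and 1 did not pass. Lrat, which esterifies retinol, fell to 0.671 ± 0.199 CPM in grafts, against 12.7 ± 2.46 CPM in resting lung. Dgat1, an acyltransferase of triglyceride synthesis that can also esterify retinol, rose to 1150 ± 372 CPM in grafts, against 469 ± 89.9 CPM in resting lung (adjusted p = 0.000253). The call of the carotenoid-cleaving enzyme Bco2 (log2 fold change 1.07, adjusted p = 0.0321) ended with library totals alone (adjusted p = 0.0834) and without graft pool 2 or 3 or resting pool 2, 3 or 5 (adjusted p up to 0.0964). Endothelial, epithelial and stromal markers, counted above, were lower in the same libraries as Adh1 and Lrat, and their part was not tested.

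Receptor partners and coregulators gave 2 higher, 2 lower and 5 not passed of 9 tested, against 23.3% higher and 23.4% lower among all genes. The RAR partners Rxra and Rxrb fell by 0.76 ± 0.26 and 0.54 ± 0.12 on the log2 scale (adjusted p = 0.0258 and 0.00229). The call of Rxra ended without graft pool 3 or resting pool 2 or 5 (adjusted p up to 0.0650). The coactivator Ncoa1 and the corepressor Nrip1, itself induced by retinoic acid, rose by 0.76 ± 0.19 and 0.96 ± 0.12. Of 16 genes known to be induced by retinoic acid in other settings, 11 were tested. Of these, 4 rose, 4 fell and 3 did not pass (median log2 fold change 0.17), beside the same shares of 23.3% and 23.4%. The 4 that rose were Tgm2, a transglutaminase, Cd38, an NAD-consuming ectoenzyme, Nrip1 and Rarres1. Tgm2 had 3866 ± 903 CPM in grafts and 2417 ± 751 CPM in resting lung, but its call (adjusted p = 0.0253) ended with scaling to library totals alone (adjusted p = 0.0808) and without resting pool 1 or 4 (adjusted p = 0.0572 and 0.0538). Cd38 rose to 187 ± 85.6 CPM in grafts, against 62.3 ± 10.7 CPM in resting lung. Among the 4 that fell were Lrat and the homeobox genes Hoxa5 and Hoxb5, which are expressed in lung mesenchyme. Of 11 stromal markers 6 were lower, 2 higher and 3 not passed, and their part was not tested. The list of induced genes was chosen with results of these data known, and 5 of its genes also stand in another list.

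**Figure D4:**
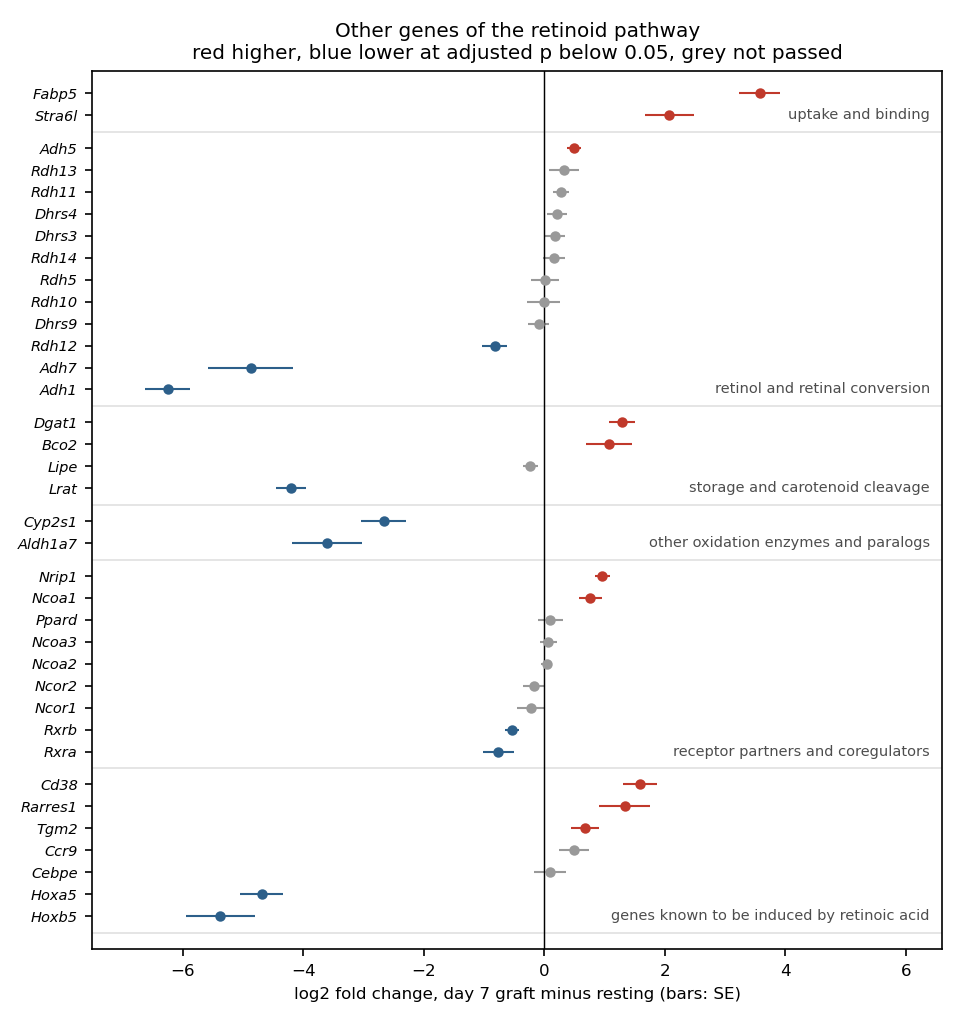
Log2 fold change (grafts minus resting lung, edgeR, bars show SE) of tested genes of the retinoid lists, each drawn once in the first list that holds it. Red marks the 10 genes that were higher and blue genes that were lower at an adjusted p below 0.05, and grey marks the 16 that did not pass, with Fabp5 the highest at 3.57 and Adh1 the lowest at -6.25.

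The genes whose pattern over the 10 libraries was most like that of Cyp26a1 were Retnla, Ccl8, Tnfsf4, Pdcd1 and Dnase1l3, of 10871 ranked by the root-mean-square difference of centred log2 CPM. The differences were 0.89, 0.94, 0.94, 1.07 and 1.09. All 5 were higher in every graft library than in any resting library, as were 16.4% of all genes tested. The ranking spans both groups and so favours such genes, and nothing is read from this. Retnla, which encodes the secreted resistin-like molecule alpha of alternatively activated macrophages, had 264 to 4345 CPM in grafts and 28.1 to 52.8 CPM in resting lung, and like Cyp26a1 it was highest in graft pool 5. Ccl8, a monocyte-attracting chemokine, had 36.2 to 92.3 CPM in grafts and 0.530 to 2.22 CPM in resting lung. Pdcd1, the gene of the inhibitory receptor PD-1, had 63.9 to 148 CPM in grafts and 0.994 to 2.30 CPM in resting lung. Dnase1l3, a secreted nuclease, had 53.9 ± 22.4 CPM in grafts and 1.66 ± 0.470 CPM in resting lung (SD). Tnfsf4, which encodes the T cell costimulator OX40L, had 38 to 238 counts per graft library and 2 counts in all resting libraries together. The ranking rests on the grafts with most Cyp26a1: without graft pool 5, 1 of these 5 genes stayed among the nearest, and without graft pool 2, 3 did. The order within the grafts was not shared throughout. Graft pool 2, next highest for Cyp26a1, was highest for Ccl8 and Dnase1l3 but the lowest graft for Tnfsf4 and Pdcd1 (2.09 and 63.9 CPM). Graft pool 5 was the lowest graft for Dnase1l3 (31.6 CPM). The likeness describes these libraries and carries no test.

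**Figure D5:**
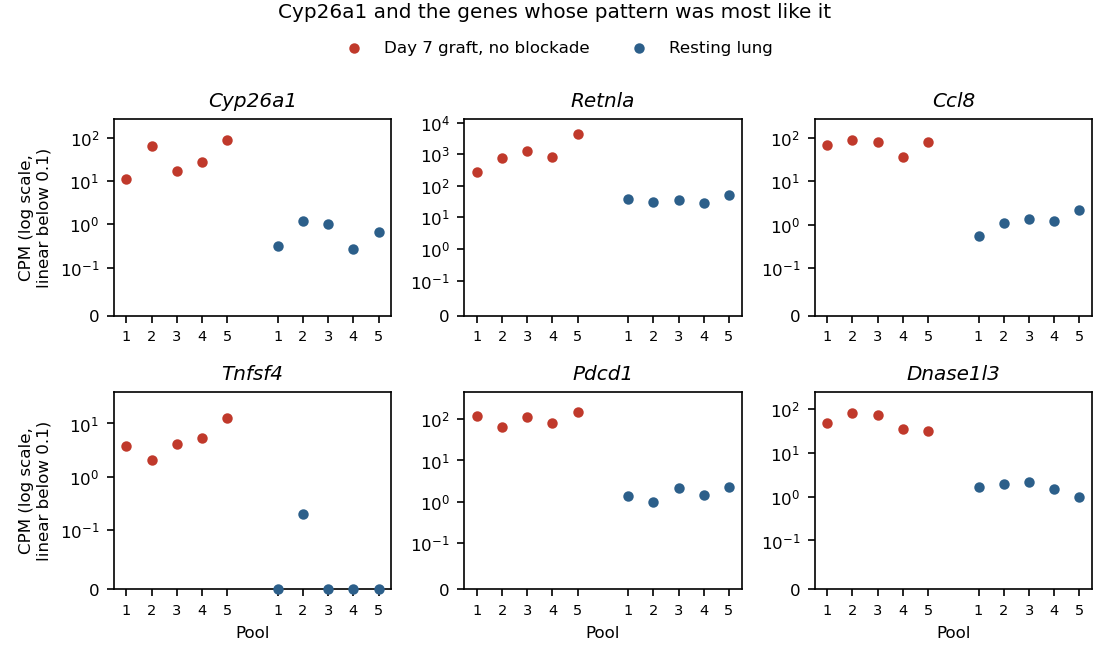
CPM of Cyp26a1 and of the 5 genes most like it in each library (graft pools left, resting pools right, log axis that is linear below 0.1). In all 6 panels every graft library lies above every resting library. Graft pool 5 is highest for Cyp26a1, Retnla, Tnfsf4 and Pdcd1 and the lowest graft for Dnase1l3. Graft pool 2, next highest for Cyp26a1, is highest for Ccl8 and Dnase1l3 and the lowest graft for Tnfsf4 and Pdcd1.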

How the data were processed

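Eosinophils sorted from mouse lung were sequenced as pools. The authors deposited raw counts of reads by gene, not normalised. The labels' protocols name Trizol extraction and an NEBNext Ultra II kit. The submitters' processing notes list STAR 2.5.2b as well as Trimmomatic 0.36, Subread 1.5.2 with featureCounts, bcl2fastq 2.17 and the build mm10, without settings. The sources used here give no annotation release, strand setting or rule for multiply matching reads. Of 20 count columns, 10 headed by bare numbers match no label and were not used. The 2 tables were joined by identifier, with symbols and coordinates from GENCODE M21, whose build is mm10.

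Genes were filtered with filterByExpr by group and tested with edgeR 4.0.16 in R 4.3.3 (quasi-likelihood F test, robust, TMM scaling, group as the only term), with Benjamini-Hochberg adjustment over 16500 genes and a threshold of 0.05. SE is the size of the log2 fold change over the square root of F. CPM use TMM-scaled totals. Levels per kilobase use the union of annotated exons. The fit was tested on simulated data. With a set log2 change of 1 or -1, it called 31 of 50 and 25 of 46 genes. With a change of 2 or -2, it called 44 of 50 and 43 of 45. It also called 7 of 15978 unchanged genes. A gene that did not pass may thus still differ. DESeq2 1.42.0 was an alternative. Nothing says that the pools came from independently kept mice, and the p-values then describe spread among pools, which may be technical. A limit of 3 counts corresponds to 0.112 to 0.191 CPM per graft library and 0.233 to 0.450 CPM per resting library and covers counting error only. No library pair within a group agreed within sampling noise (chi-square per degree of freedom 6.57 or more).

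The genes and lists were chosen with earlier results of these data known. Named genes are the 9 genes, the 12 called list genes with the highest level, and the 5 genes most like Cyp26a1 among tested genes with an official symbol and at least 5 CPM in the higher group, of which 1 list gene is not reported here. Stra6l, Lrat, Rdh10, Adh7, Cyp2s1, Bco2, Aldh1a7, Rarres1, Hoxa5, Hoxb5 and Top2b were named after their values were seen, and the ratio of Cyp26 to Aldh1a was chosen after seeing the data.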

Additional observations from a re-analysis of the deposited data

Results flagged for a closer look

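Within a group of 5 pools, a library was singled out where its gap to the nearest other exceeded 0.71 of the group's range. Of 18 groups checked (9 genes in 2 groups), 3 had such a library, and chance alone gives about 1 in 20 groups. Aldh1a1 was 182 CPM in resting pool 1, above the other resting pools. Aldh1a3 was 1.38 CPM in resting pool 1, above the other resting pools, and 0.108 CPM in graft pool 5, below the other graft pools. These Aldh1a3 values rest on 13 and 2 counts.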

How the results depend on the processing

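The direction of Cyp26a1, Aldh1a1, Aldh1a2, Rara, Rarb and Rarg was kept in all fits run (library totals alone, DESeq2, no filter on low counts, replicate block, and leaving out each library). With library totals alone 2495 genes were higher, and without a filter 6715 were lower. Rarg without a filter had a log2 fold change of -1.05 and lost its call, and the cause was not tested. Leaving out each library gave -1.11 to -0.75 for Aldh1a2 and 0.55 to 1.00 for Rarb, which then passed without resting pool 5. Without correction for length, the mean shares within a family became 41.4% (grafts) and 94.3% (resting) for Aldh1a1, 51.6% and 5.48% for Aldh1a2, 97.9% and 29.8% for Cyp26a1, and 2.14% and 70.2% for Cyp26b1, in the same order. That order holds for the means: without correction for length Aldh1a1 was above Aldh1a2 in graft pool 3 (5.96 against 5.02 CPM) and graft pool 5 (4.63 against 2.96 CPM). Among the alternative fits of list genes, 14 ended a call, all for Bco2, Rxra, Tgm2 or Rarres1. Replicate numbers did not pair the pools (correlation of same-numbered pools -0.188 to 0.12). With the replicate block 3317 genes were higher and 3636 lower, and Bco2 (adjusted p = 0.101) and Rarres1 (adjusted p = 0.0671) lost their calls.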

Other observations

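DR5 elements were found in the promoter windows of 31 genes, of which 15 matched 1 counted identifier. Cyp26a1, chosen for its rise, is left out of what follows, and 6 others were tested. Of these, 1 was higher in the grafts (Blvrb), 3 lower (Ppbp, Cfap45 and Prss27) and 2 did not pass (Rarb and Tnfsf13b), with a median log2 fold change of -0.29, against 23.3% higher and 23.4% lower among all genes tested. Blvrb, a reductase of the heme breakdown product biliverdin, had 74.2 ± 21.0 CPM in grafts and 22.5 CPM in resting lung, with a log2 fold change of 1.72 ± 0.18. Ppbp, a chemokine of platelets, had 3.82 CPM in grafts and 115 CPM in resting lung. Platelet markers, of which Ppbp is itself 1, were lower in 4 of 4 cases. The groups overlapped for Cfap45 and Prss27 (quasi-likelihood adjusted p = 0.0208 and 0.0489). Prss27 had only 6 to 15 counts per graft library and 5 to 16 per resting library. These genes were named after their values were seen.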
